A study of Mus musculus with 16 samples.

Results

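Double-positive (DP) thymocytes were sorted from the thymus of old and of young wild-type (WT) mice, and their RNA was compared gene by gene. Libraries were chosen by their labels alone, which gave 4 old WT and 3 young WT libraries, 7 of the 16 in the series. Another 3 libraries labelled young METTL3 KO entered the filter of genes, the scaling and the estimate of spread, but not the contrast. Their levels are given as a further set of young DP cells. METTL3 is the enzyme that adds the methyl mark m6A (N6-methyladenosine) to adenosines of mRNA. The labels give no strain, sex, age in weeks or months, or number of mice per library, and do not say how METTL3 was removed. They do not say that replicates came from separate mice, so the p-values measure only the spread between these samples, which may be in part technical. The 6 libraries with no age on their label were not used.

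DP thymocytes carry both CD4 and CD8 and are the most numerous cells of the thymic cortex. They rearrange the T cell receptor alpha chain with the RAG recombinase, and a cell whose receptor binds self peptide and MHC weakly is kept, a step called positive selection, while most others die. With age the thymus shrinks, a process called involution, and its output of new T cells falls. Thymocytes of fetal and newborn mice differ from adult ones in a set of growth genes under the control of LIN28B and the let-7 microRNAs.

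Libraries were alike in depth, with between 9781368 and 10307780 counts in genes, and 47.5% to 51.2% of counted entries lay outside annotated genes. The DP marker genes were abundant in every library, with Cd4 between 1221 and 1532 CPM (reads per 1000000 of the TMM-scaled library total) in old WT. Mettl3 had 62.1, 64.5 and 64.3 CPM in the libraries labelled young METTL3 KO and 66.0, 65.7 and 59.5 CPM in young WT, so the gene count shows no loss in the former. Read from Xist and Y-linked genes, young WT held 1 female and 2 male libraries, old WT 2 and 2, and the libraries labelled young METTL3 KO 1 and 2. Each group thus held libraries of different animals, but libraries of the same sex may share a mouse.

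Old WT replicate 3 stood apart from the other old libraries. Of its entries, 9.18% were not uniquely aligned, against 4.46% to 5.36% in the other libraries with an age. Its summed level was 298 CPM over 17 myeloid genes, against 50.03 to 63.6 CPM in the other old libraries, and 1054 CPM over 15 dendritic and MHC class II genes, against 89.2 to 179 CPM. B cell genes summed to 2193 CPM there. They also differed among the rest, at 725, 1027 and 495 CPM in old WT replicates 1, 2 and 4 and 444 to 500.5 CPM in young WT. Its 13 mitochondrially encoded genes summed to 93558 CPM, against 18043 to 20609 CPM in the other old libraries. The neutrophil genes S100a8 and S100a9 had no count in it, and 4 of 11 stromal and endothelial genes (Pdgfra, Col1a2, Col3a1 and Dcn) had none. Called genes and lists below are therefore given with all 4 old libraries and without old WT replicate 3. Some genes that did not pass are given in 1 fit. In bulk RNA, fewer cells of a type and less RNA per cell cannot be told apart.

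**Figure D1:**
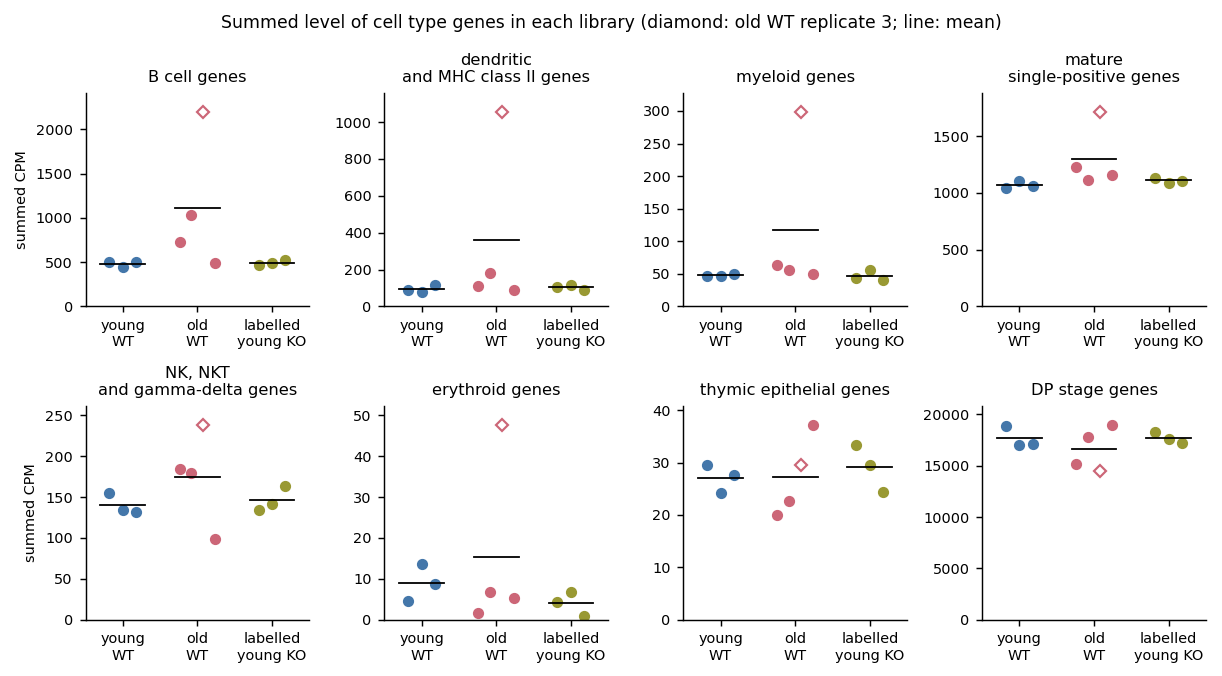
Summed CPM of 8 marker lists (vertical axes, 1 panel a list) in each library of young WT, old WT and the libraries labelled young METTL3 KO, with 1 point per library. The diamond, old WT replicate 3, is the highest old library for myeloid genes (298 CPM) and for dendritic and MHC class II genes (1054 CPM), and the lowest for DP stage genes.

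Of 14228 genes tested with all libraries, 36 passed at an adjusted p of 0.05 (0.253%), 18 higher and 18 lower in old WT (0.127% in each direction). Leaving out old WT replicate 3 gave 43 of 14136 genes (0.304%), 23 higher (0.163%) and 20 lower (0.141%). These shares stand beside each count of called list members below. The calls shared by both fits numbered 35, all in the same direction. Slc48a1 passed only with all libraries, and 8 genes passed only without that replicate. An unadjusted p under 0.05 was reached by 12.1% of all genes with all libraries and by 10.8% without the replicate. Over all genes the median log2 change was 0.01 with the replicate and 0.00 without it. Genes whose old libraries all lay above, or all below, every young library made up 5.65% (804) and 4.13% (588) of those tested.

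Old WT replicate 3 weighed on the size of rises, and on which genes passed in DESeq2 more than in edgeR. With all libraries, 324 genes were more than 2-fold higher in old WT and 104 more than 2-fold lower, against 119 and 107 without it. Of 279 genes that were tested in both fits and more than 2-fold higher in the first, 98 were so in the second, and old WT replicate 3 was the highest old library in 241. For genes of at least 5 CPM in this set, that was so in 122 of 132. Of the 104 genes more than 2-fold lower, 73 stayed so. DESeq2, a second count test, called 153 genes with all libraries (1.08%; 109 higher, 0.766%, and 44 lower, 0.309%). Without the replicate it called 114 (0.806%; 71 higher, 0.502%, and 43 lower, 0.304%), with 81 in both and every edgeR call among those of its own fit. Of the 109 higher genes, 56 were not called without the replicate, and it was the highest old library for 42 of these.

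**Figure D2:**
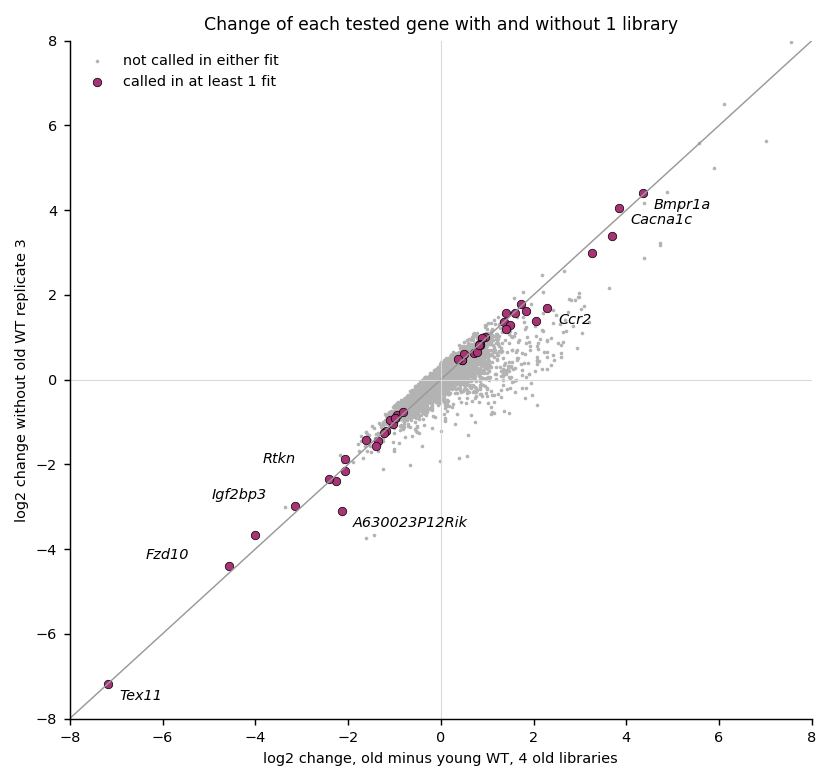
Log2 change from young to old WT with all 4 old libraries (horizontal axis) and without old WT replicate 3 (vertical axis), with 1 point per gene tested in both fits and the 44 genes called in either fit marked. The called genes lie near the diagonal, whereas many other genes with a high value on the horizontal axis lie well below it. Of the 279 genes more than 2-fold higher with all libraries, 98 stay so without the replicate.

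The calls leaned on the young group, which has 3 libraries. Without young WT replicate 1, 2 or 3, 9, 10 and 8 of the 36 calls remained, and without old WT replicate 1, 2, 3 or 4, 29, 30, 35 and 36 did. With the libraries labelled young METTL3 KO left out of the fit, 11 of the 36 remained. In the fit that already lacked old WT replicate 3, 15, 15 and 18 of 43 calls remained without young WT replicate 1, 2 or 3, and 42, 26 and 41 without old WT replicate 1, 2 or 4. Igf2bp3, Bmpr1a, Fgf13, Rtkn, Wdr54, Cdc42bpa and A530040E14Rik kept their call in both fits whichever 1 library was left out. For the other genes, the libraries without which the call was lost and the largest adjusted p are given where they are described. They come from the fit of all libraries for genes called there, unless the other fit is named, and from the fit without old WT replicate 3 for the rest. In the fit without old WT replicate 3, the calls of Fbln2, Plod2, Ptprj, St3gal6, Tex11, Nespas, Wscd1 and 4921525O09Rik were also lost without old WT replicate 2. By the choice of fit given above, each of the other genes lost its call without at least 1 young WT library, except Fzd10 and A630023P12Rik. In the fit without old WT replicate 3, Gpc1, Cacna1c and C130026I21Rik also kept theirs whichever 1 library was left out.

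Among genes of the fetal programme, Igf2bp3 and Plag1 fell. Igf2bp3 encodes an RNA-binding protein that stabilises growth-promoting mRNAs, reads m6A, and is known from fetal tissues and tumours. It had 34.2, 37.7 and 26.8 CPM in young WT replicates 1 to 3 and 4.40, 4.06, 2.36 and 3.96 CPM in old WT replicates 1 to 4. Every old library was far below every young one, and the old libraries lay close together. The log2 change ± SE was -3.14 ± 0.18 (adjusted p = 4.15e-06), and -2.98 ± 0.16 without old WT replicate 3 (7.91-fold lower, adjusted p = 8.42e-07). The libraries labelled young METTL3 KO, at 28.5, 31.5 and 33.4 CPM, were at the young WT level.

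The Igf2bp genes are known let-7 targets, and the 3′ UTR of Igf2bp3 holds 1 match to the let-7 seed. The mature let-7a and let-7g of the mouse, from RefSeq (GRCm38.p6), are shown with the seed, bases 2 to 8, in capitals. The Igf2bp3 site is shown with the match in capitals, 5′ to 3′ on the minus strand at chr6:49086787-49086808 of mm10.

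mmu-let-7a-5p: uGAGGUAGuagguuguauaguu
mmu-let-7g-5p: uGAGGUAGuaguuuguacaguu
Igf2bp3 site: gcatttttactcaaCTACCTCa

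The motif searched, CTACCTC on the transcript strand, was found in the 3′ UTR of 10.7% of 11109 tested genes, in 2 of 17 genes called lower (Igf2bp3 and Malsu1) and in 4 of 21 called higher (Gpc1, Ptprj, Socs1 and Tob2). The median 3′ UTR length was 1993 bases in these genes called higher, 1127 in those called lower and 1173 in all tested, so the shares are not of like lengths. MicroRNAs were not measured here, and a match is not evidence of binding.

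Igf2bp3 lies on the minus strand of chromosome 6 at 49085223 to 49214957 (mm10), and its exons, counted over all annotated GENCODE transcripts, overlap those of Malsu1 on the other strand by 1529 bp. Strand was not given for the counting, so reads of overlapping genes on opposite strands cannot be told apart here, in this and later pairs. Malsu1, whose protein takes part in assembly of the mitochondrial ribosome, had 27.1, 35.9 and 31.0 CPM in young WT and 20.9, 12.8, 10.4 and 14.7 CPM in old WT. It fell by 1.09 on the log2 scale (SE 0.19, adjusted p = 0.0309), and by 0.96 without old WT replicate 3 (adjusted p = 0.0266). The largest adjusted p with 1 library left out was 0.253, and the call was lost without any 1 young library or old WT replicate 2.

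Plag1, a zinc-finger factor that activates Igf2 and other growth genes, had 5.45, 6.11 and 4.53 CPM in young WT and 2.25, 1.78, 2.47 and 2.61 CPM in old WT. The groups did not overlap, and old WT replicate 3 was among the higher old libraries. The change was -1.23 ± 0.21 (adjusted p = 0.0257) and -1.27 ± 0.22 without that replicate (adjusted p = 0.0259). Its call was lost without any 1 young library or without old WT replicate 1 or 2 (adjusted p up to 0.232).

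The rest of the fetal programme was at or near the detection limit or did not pass. Lin28b had at most 1 count in any library, with 1 in old WT replicate 1 (0.0977 CPM), so no difference was detectable at this depth. Igf2bp1 was at most 0.215 CPM in the 7 libraries, and neither gene was tested. H19, an imprinted RNA of fetal tissues, had 0.779, 1.30 and 1.21 CPM in young WT and 0.684, 0.0991, 2.04 and 0 CPM in old WT. Its change was -0.66 (adjusted p = 0.765), and -2.02 ± 0.66 without old WT replicate 3 (adjusted p = 0.296). Igf2bp2 (0.30 without old WT replicate 3) and Arid3a (0.11) did not pass. Of 12 listed genes 5 were tested and 2 were called lower, beside 0.127% of all genes with all libraries and 0.141% without the replicate. With so few genes the median is the value of a single member. It was that of H19 (-0.66) with all libraries and that of Plag1 (-1.27) without the replicate, against 0.01 and 0.00 over all genes. It does not describe the list as a whole.

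Of genes of bone morphogenetic protein (BMP) signalling, a receptor and a co-receptor rose. BMPs bind pairs of type I and type II receptor kinases that phosphorylate SMAD1, SMAD5 and SMAD9, and thymic stroma makes BMP ligands. Bmpr1a, a type I receptor, had 0.292, 0.401 and 1.01 CPM in young WT and 11.7, 14.6, 10.7 and 10.3 CPM in old WT. It was barely present in any young library and present in every old one, with old WT replicate 3 inside the range of the others. The rise was 4.36 ± 0.36 on the log2 scale (adjusted p = 0.000128), and 4.41 ± 0.34 without that replicate (21.2-fold, adjusted p = 3.1e-05). The libraries labelled young METTL3 KO had 0.496, 0.889 and 0.398 CPM. Bmpr1a lies on chromosome 14 at 34410734 to 34503341 (mm10) and overlaps the low-count Gm17110 by 290 bp.

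Rgmb, which encodes a membrane-anchored BMP co-receptor of the repulsive guidance molecule family, had 1.46, 1.60 and 1.21 CPM in young WT and 4.89, 3.96, 7.2 and 4.35 CPM in old WT. No old library overlapped a young one, and old WT replicate 3 was the highest. The rise was 1.83 ± 0.28 (adjusted p = 0.0167), and 1.62 ± 0.24 (3.07-fold) without it (adjusted p = 0.0103). The call was lost without any 1 young library (adjusted p up to 0.127). Among 10 tested receptors of the BMP and TGF-beta family, Bmpr1a alone passed, and the median change was -0.12, or -0.06 without old WT replicate 3. Acvr1b, an activin type I receptor, was 0.29 with all libraries (adjusted p = 0.33) and 0.30 ± 0.11 without the replicate (adjusted p = 0.351). None of 14 tested SMAD and BMP target genes passed in edgeR in either fit, with a median of 0.11 and 0.13. An unadjusted p under 0.05 was reached by 2 in each fit, beside 12.1% and 10.8% of all genes, and DESeq2 called 0. The SMAD genes Smad3 (-0.28 ± 0.09, adjusted p = 0.256) and Smad5 (0.34 ± 0.12, adjusted p = 0.327) had the smallest p of these without the replicate, and with all libraries they were -0.33 and 0.29.

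Of Wnt receptors, Fzd10 and the Wnt co-receptor Ptk7 fell. Wnt ligands bind Frizzled receptors and stabilise beta-catenin, which acts with TCF7 and LEF1 in thymocytes. Fzd10, a Frizzled, had 4.96, 18.1 and 15.2 CPM in young WT and 0.684, 0.793, 0.322 and 0.290 CPM in old WT. The young libraries themselves spread widely, with replicate 1 low, but each was above every old library. The fall was -4.57 ± 0.49 (adjusted p = 0.00199), and -4.41 ± 0.57 without old WT replicate 3 (21.3-fold lower, adjusted p = 0.00897). From that second fit the call was lost without old WT replicate 1 or 4 (adjusted p up to 0.11), though not from the fit of all libraries. The libraries labelled young METTL3 KO had 10.02, 14.4 and 8.45 CPM.

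Ptk7, a receptor with an inactive kinase domain that acts in Wnt and cell polarity signalling, had 18.7, 18.3 and 17.7 CPM in young WT and 10.1, 11.2, 9.24 and 11.0 CPM in old WT. Both groups were tight and did not overlap. The fall was -0.81 ± 0.12 (adjusted p = 0.0148), and -0.76 ± 0.12 without old WT replicate 3 (adjusted p = 0.0167), and it was not called without any 1 young library (adjusted p up to 0.109). The other Frizzled and LRP receptors did not pass. Of 6 tested Wnt receptors, 5 were above 0 without old WT replicate 3 (median 0.25), with Fzd5 at 0.48 ± 0.23 (adjusted p = 0.472, and 0.34, adjusted p = 0.616, with all libraries). None of 13 tested transducers and targets passed in edgeR, and their median was -0.01, or 0.07 without the replicate. An unadjusted p under 0.05 was reached by 3 and, without the replicate, 2, beside 12.1% and 10.8% of all genes, and DESeq2 called 0. The negative feedback genes Axin2 (0.23 and, without the replicate, 0.32, adjusted p = 0.392) and Nkd1 (-1.04 and -1.09, adjusted p = 0.401) lay on opposite sides of 0.

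Heparan sulfate proteoglycans, which hold growth factors at the cell surface or in the matrix, moved in both directions. Gpc1, a glypican anchored to the membrane by a lipid, had 13.9, 18.6 and 15.5 CPM in young WT and 34.1, 47.9, 64.3 and 35.5 CPM in old WT. All old libraries were above all young ones, and old WT replicate 3 was the highest. The rise was 1.502 ± 0.21 (adjusted p = 0.00871), and 1.29 ± 0.15 without it (2.45-fold, adjusted p = 0.0015), a call kept in that fit whichever 1 library was left out. With all old libraries it was lost without young WT replicate 1 or 3 (adjusted p up to 0.0861). Gpc1 overlaps Ankmy1 on the other strand by 977 bp, and Ankmy1, at 1.90 to 2.73 CPM in young and 3.86 to 6.98 CPM in old WT, differed in value by 1.21 with all libraries (adjusted p = 0.147) and by 1.06 without the replicate (adjusted p = 0.158).

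Hspg2 encodes perlecan, a large secreted proteoglycan of basement membranes. It had 24.6, 21.2 and 16.3 CPM in young WT and 5.96, 5.95, 3.98 and 11.1 CPM in old WT. Old WT replicate 4 was closest to the young libraries, and no library overlapped the other group. The fall was -1.61 ± 0.26 (adjusted p = 0.0224), and -1.43 ± 0.23 without old WT replicate 3 (adjusted p = 0.0176). The libraries labelled young METTL3 KO, at 11.7, 13.8 and 13.3 CPM, lay between the groups. The Hspg2 call was lost without any 1 young library or without old WT replicate 1 or 2 (adjusted p up to 0.156). Over 7 tested core proteins the median turned from 0.60 to -0.39 without old WT replicate 3, and the secreted Agrn was lower in value (-0.62, adjusted p = 0.241, and -0.69 ± 0.18, adjusted p = 0.172, without it). Of the enzymes that build the chains, 0 of 12 passed in edgeR, and 0 of 11 without the replicate. At an unadjusted p under 0.05 there were 2 and 0, beside 12.1% and 10.8% of all genes, and DESeq2 called 0.

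Other matrix genes that fell were Fbln2, a fibulin of elastic fibres, and Plod2, which hydroxylates collagen lysines. Fbln2 went from 25.6 ± 2.37 CPM (SD, n = 3) in young WT to 12.9 ± 2.73 CPM (SD, n = 4) in old WT, a log2 change of -0.99 (adjusted p = 0.0171) and of -0.91 without old WT replicate 3 (adjusted p = 0.0213). Plod2 went from 19.3 ± 1.64 to 9.65 ± 2.39 CPM (-0.996, adjusted p = 0.0227), and changed by -0.91 without it (adjusted p = 0.0297). Neither gene's groups overlapped. Both calls were lost without any 1 young library, with adjusted p up to 0.142 for Fbln2 and 0.197 for Plod2 with all old libraries, and up to 0.159 and 0.206 in the fit without old WT replicate 3. Exons of Plod2 overlap those of Gm38391 on the other strand by 346 bp. Collagen genes of stromal cells were near 0, with no count of Col1a2 or Col3a1 in old WT replicate 3.

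Fgf13, a member of the fibroblast growth factor family that stays inside the cell and binds sodium channels and microtubules, fell. It had 41.5, 41.5 and 44.9 CPM in young WT and 14.5, 13.9, 19.99 and 18.6 CPM in old WT. The lowest young library was more than 2-fold above the highest old one. The change was -1.35 ± 0.13 (adjusted p = 0.000438), and -1.44 ± 0.12 without old WT replicate 3 (2.71-fold lower, adjusted p = 8.69e-05). Levels in those labelled young METTL3 KO were 41.4, 46.1 and 46.1 CPM. Fgf13 alone passed among 6 tested genes of this family and its regulators (median -0.39, or -0.45 without the replicate). The feedback inhibitor Spry2 had 2.04, 2.004 and 1.51 CPM in young WT and 0.782, 0.595, 2.26 and 0.773 CPM in old WT. It did not pass with or without old WT replicate 3, the high one (-0.76 and -1.35, adjusted p = 0.525 and 0.221).

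**Figure D3:**
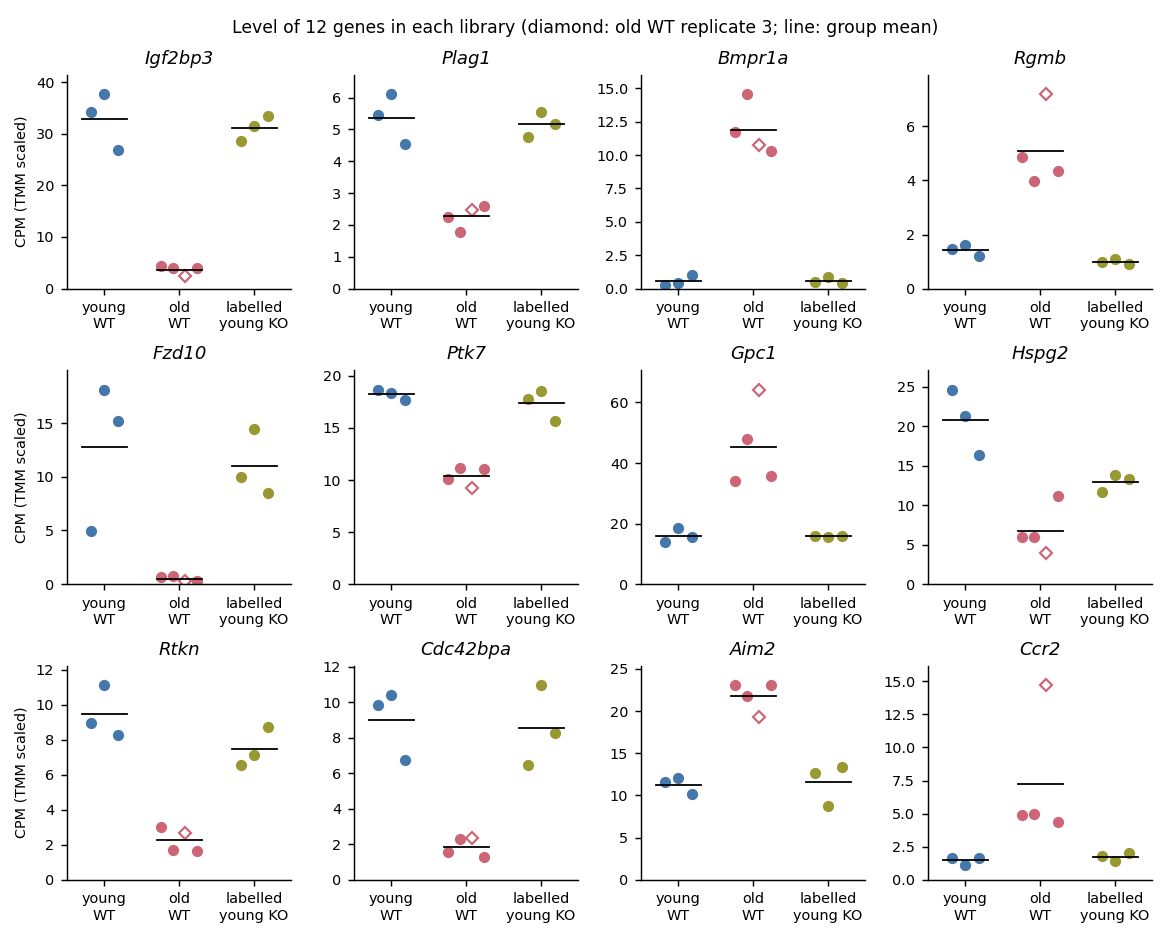
CPM of 12 called genes (linear vertical axes from 0, 1 panel a gene) in each library of young WT, old WT and the libraries labelled young METTL3 KO. Points are libraries, lines are group means and the diamond is old WT replicate 3. Igf2bp3, at 26.8 to 37.7 CPM in young and 2.36 to 4.40 CPM in old WT, and Bmpr1a, at 0.292 to 1.01 and 10.3 to 14.6 CPM, show the widest gaps beside Fzd10.

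Cttn rose in both fits, and Nav2 without old WT replicate 3. Cttn encodes cortactin, which stabilises branched actin at the cell edge. It had 3.21, 4.51 and 4.23 CPM in young WT and 9.77, 11.1, 12.9 and 14.9 CPM in old WT. The groups were clearly apart. The rise was 1.61 ± 0.21 (adjusted p = 0.0056), and 1.58 ± 0.22 without old WT replicate 3 (2.995-fold, adjusted p = 0.0064). The call was lost without young WT replicate 1 or 3 (adjusted p up to 0.0701). No other of 17 tested cortical actin genes passed.

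Nav2, a neuron navigator that binds microtubules, had 40.9, 47.7 and 39.6 CPM in young WT and 83.2, 121, 75.5 and 177 CPM in old WT. All old libraries were above all young ones, but they spread over more than a 2-fold range, and old WT replicate 3 was the lowest. It did not pass with all libraries (1.42 ± 0.26, adjusted p = 0.069) and passed without that replicate (1.57 ± 0.22, 2.98-fold, adjusted p = 0.012). The second call was lost without any 1 young library (adjusted p up to 0.0956).

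Rtkn, which encodes the scaffold protein rhotekin, fell, as did 2 genes whose proteins bind the small GTPase CDC42. Rtkn had 8.95, 11.1 and 8.26 CPM in young WT and 3.03, 1.68, 2.69 and 1.64 CPM in old WT. Wdr54, which encodes a WD-repeat protein, overlaps it on the other strand by 1778 bp and had 7.98, 7.92 and 5.04 CPM in young WT and 1.66, 1.19, 1.07 and 1.26 CPM in old WT. In both genes the groups stood well apart. Rtkn fell by 2.06 ± 0.24 on the log2 scale (adjusted p = 0.00199), and by 2.15 ± 0.25 without old WT replicate 3 (adjusted p = 0.00145). Wdr54 fell by 2.42 ± 0.24 (adjusted p = 0.000487), and by 2.34 ± 0.25 without it (adjusted p = 0.000811). The counts do not separate the members of this overlapping pair.

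Cdc42bpa, a kinase that binds CDC42 and acts on myosin, had 9.83, 10.4 and 6.75 CPM in young WT and 1.56, 2.28, 2.36 and 1.26 CPM in old WT. The highest old library was well under the lowest young one. The change was -2.27 ± 0.27 (adjusted p = 0.00239), and -2.40 ± 0.29 without old WT replicate 3 (5.27-fold lower, adjusted p = 0.00191). Its exons overlap those of Coq8a and Gm38331 on the other strand, by up to 366 bp. Fnbp1l, a membrane-bending adaptor that links CDC42 to actin assembly, went from 12.2 ± 1.04 CPM (SD, n = 3) to 5.96 ± 0.796 CPM (SD, n = 4). It changed by -1.04 ± 0.16 (adjusted p = 0.0165) and by -1.05 ± 0.17 without the replicate (adjusted p = 0.0176), a call lost without any 1 young library (adjusted p up to 0.12).

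Of genes of innate immunity and of the response to interferon, Aim2, Igtp and Apol7e rose in old WT in both fits. Aim2 encodes a sensor of cytosolic DNA that assembles an inflammasome. It had 11.6, 12.03 and 10.2 CPM in young WT and 23.1, 21.8, 19.3 and 23.1 CPM in old WT. Old WT replicate 3 was the lowest old library, and no old library came near a young one. The rise was 0.95 ± 0.15 (adjusted p = 0.0211), and 1.01 ± 0.15 without it (2.01-fold, adjusted p = 0.0103). The call was lost without any 1 young library (adjusted p up to 0.185).

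Igtp, an interferon-induced GTPase of the immunity-related family, had 67.1, 66.2 and 73.9 CPM in young WT and 101, 105, 151 and 117 CPM in old WT. The highest was old WT replicate 3, and the groups did not overlap. The rise was 0.78 ± 0.13 (adjusted p = 0.0224), and 0.64 ± 0.09 without it (1.56-fold, adjusted p = 0.00788). The call was lost without any 1 young library (adjusted p up to 0.218). Apol7e, of the apolipoprotein L family, had 27.8, 22.7 and 23.9 CPM in young WT and 49.0, 41.9, 36.8 and 55.8 CPM in old WT. Here old WT replicate 3 was the lowest old library, still above all young ones. The rise was 0.89 ± 0.15 (adjusted p = 0.0224) and 0.98 ± 0.13 without it (adjusted p = 0.00472), and the call was lost without any 1 young library or old WT replicate 1 (adjusted p up to 0.223). Its reads overlap those of Gm36329 on the other strand (0.76, adjusted p = 0.128, and 0.82, adjusted p = 0.0926, without the replicate).

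Socs1, a feedback inhibitor of cytokine receptor kinases that restrains interferon signals in thymocytes, had 58.6, 59.3 and 55.5 CPM in young WT and 95.9, 75.4, 60.1 and 93.8 CPM in old WT. In old WT replicate 3 it was close to the young libraries and the other 3 were well above. It did not pass with all libraries (0.49 ± 0.14, adjusted p = 0.248) and passed without that replicate (0.61 ± 0.11, 1.53-fold, adjusted p = 0.0259). This call was lost without any 1 young library (adjusted p up to 0.202). The related Socs3 was 0.71 with all libraries (adjusted p = 0.124) and 0.70 ± 0.17 without the replicate (adjusted p = 0.15), with 18.9 to 20.3 CPM in young and 25.1 to 42.6 CPM in old WT. Of 18 tested cytokine signalling genes, 16 were above 0 with all libraries and 14 without the replicate (medians 0.21 and 0.16).

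Igtp and Socs1 carry in their promoters GAAA, any 2 bases and GAAA again, the core of an interferon-stimulated response element. Each window runs from 120 bases before to 30 after the annotated start (RefSeq, GRCm38.p6), with the motif in capitals. That of Igtp is the plus strand at chr11:58199436-58199585 and that of Socs1 the minus strand at chr16:10785507-10785656, where a pair of matches overlaps.

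Igtp promoter: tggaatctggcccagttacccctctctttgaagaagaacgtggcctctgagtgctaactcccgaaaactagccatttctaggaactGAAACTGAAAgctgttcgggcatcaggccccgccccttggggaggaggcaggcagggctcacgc
Socs1 promoter: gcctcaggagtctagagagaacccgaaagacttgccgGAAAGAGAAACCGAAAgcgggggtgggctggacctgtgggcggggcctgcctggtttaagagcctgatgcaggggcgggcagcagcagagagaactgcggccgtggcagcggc

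The motif was searched on both strands of windows from 250 bases before to 50 after the start. It was in 3 of 19 genes called higher that have a window (Apol7e, Igtp and Socs1), 1 of 14 called lower (Igf2bp3), and 3.74% of 9508 tested genes. The E-box core CAGCTG, a sequence bound by E proteins, was in 6 of 14 genes called lower (Cdc42bpa, Fgf13, Fzd10, Rtkn, Wdr54 and Wscd1), 3 of 19 called higher and 17.5% of tested genes. Rtkn (plus strand) and Wdr54 (minus strand) overlap at their 3′ ends. Their annotated gene starts, at 83135463 and 83156397 of chromosome 6, lie farther apart than a window is long. Another E-box, CACGTG, was in 3 of 14 lower genes (Igf2bp3, Padi4 and Stag3), 0 of 19 higher genes and 11.8% of tested genes. A match is a description of the sequence and not of binding.

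As groups, both innate lists lay above 0 in either fit, though few members passed. Of 12 tested cytosolic nucleic acid sensors, 12 were above 0 with all libraries and 12 without old WT replicate 3, with medians of 0.47 and 0.29. Aim2 alone was called in edgeR, beside 0.253% of all genes with all libraries and 0.304% without the replicate. The RNA sensor Ddx58 (0.42 ± 0.10, adjusted p = 0.145), the DNA-binding Mndal (0.34 ± 0.08, adjusted p = 0.154) and Zbp1, a sensor of Z-form nucleic acid (0.46 ± 0.12, adjusted p = 0.197), followed by p in the fit without the replicate. With all libraries they were 0.55, 0.41 and 0.62, with adjusted p of 0.153 to 0.21. Of 36 tested interferon-stimulated genes, 34 and 32 were above 0, with medians of 0.56 and 0.29. Igtp alone passed in edgeR, beside the same shares of all genes. The mean log2 level of the list, with a small constant added to CPM, was 3.46, 3.36 and 3.30 in young WT. In old WT it was 3.78, 3.78, 4.49 and 3.31, so old WT replicate 4 lay within the young range, near its lower end. The summed level of the list in that library was 893 CPM, against 709 to 756 CPM in young WT. Gbp2, an interferon-induced GTPase, had 19.7 to 22.6 CPM in young WT and 31.6, 38.2, 41.4 and 27.1 CPM in old WT (0.69, adjusted p = 0.077, and 0.60 ± 0.13 without the replicate, adjusted p = 0.0929). Iigp1, of the same family as Igtp, was 13.6 CPM in old WT replicate 3 against 2.03 to 3.47 CPM in the other old and 0.604 to 1.203 CPM in young libraries. Over all genes tested, 51.1% were above 0, and 51.0% without the replicate.

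Ccr2 and Scarf1, a pair of surface receptors, rose without old WT replicate 3, and Ptprj, St3gal6 and Igip rose in both fits. Ccr2, a chemokine receptor of monocytes and some T cells, had 1.65, 1.102 and 1.61 CPM in young WT and 4.89, 4.96, 14.7 and 4.35 CPM in old WT. Old WT replicate 3 was far above the rest, and the other 3 lay close together above every young library. It did not pass with all libraries (2.29 ± 0.45, adjusted p = 0.0676) and passed without that replicate (1.69 ± 0.25, 3.23-fold, adjusted p = 0.0102), though not also without young WT replicate 2 or 3 (adjusted p up to 0.0747). Myeloid genes summed to 63.6, 55.9 and 50.03 CPM in these 3 old libraries and to 45.9 to 49.97 CPM in young WT, and their part in the Ccr2 value was not tested. Scarf1, a scavenger receptor, had 1.75, 1.90 and 1.51 CPM in young WT and 3.61, 4.26, 6.56 and 4.06 CPM in old WT. It passed only without the replicate (1.204, adjusted p = 0.0453, against 1.41, adjusted p = 0.0534), and not without any 1 further library except old WT replicate 1 (adjusted p up to 0.263).

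Ptprj, a receptor phosphatase (CD148) that acts on SRC-family kinases at the T cell receptor, had 8.95, 8.12 and 10.4 CPM in young WT and 15.7, 15.6, 17.7 and 17.2 CPM in old WT. Old libraries were tightly grouped above all young ones. The rise was 0.85 ± 0.14 (adjusted p = 0.0227) and 0.82 ± 0.15 without old WT replicate 3 (adjusted p = 0.0299). St3gal6, which adds sialic acid to surface glycans, went from 11.1 ± 0.785 CPM (SD, n = 3) to 19.8 ± 2.14 CPM (SD, n = 4), a rise of 0.83 ± 0.13 (adjusted p = 0.0165) and of 0.82 ± 0.13 without it (adjusted p = 0.0179). Its exons overlap those of Dcbld2, under 2 CPM in every library, by 1603 bp. Igip, whose small protein was named for inducing IgA, went from 19.03 ± 1.34 to 34.4 ± 3.99 CPM (0.85 ± 0.14, adjusted p = 0.0224, and 0.84 ± 0.15, adjusted p = 0.0259). These 3 calls were lost without any 1 young library, with adjusted p up to 0.223 for Ptprj, 0.154 for St3gal6 and 0.218 for Igip with all old libraries. In the fit without old WT replicate 3 it was up to 0.247, 0.181 and 0.219.

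Cacna1c encodes the pore of an L-type calcium channel. It had 0.0973, 0.401 and 0.604 CPM in young WT and 3.42, 5.95, 3.01 and 9.37 CPM in old WT. Young levels were near the detection limit, and old libraries spread over a 3-fold range with old WT replicate 3 the lowest. The rise was 3.85 ± 0.56 (adjusted p = 0.0145), and 4.06 ± 0.50 without it (16.6-fold, adjusted p = 0.00273), and in that second fit it was kept whichever 1 library was left out. With all old libraries it was lost without any 1 young library (adjusted p up to 0.109).

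Of genes of metabolism, Pdk1, Aldh1l1, Faah and Slc48a1 rose with all libraries. Pdk1, a kinase that restrains entry of pyruvate into mitochondria, had 220, 208 and 215 CPM in young WT and 317, 295, 298 and 274 CPM in old WT. It is the most abundant called gene, and its groups did not overlap. The rise was 0.47 ± 0.09 (adjusted p = 0.0454) and 0.46 ± 0.09 without old WT replicate 3 (1.38-fold, adjusted p = 0.0453). The call was lost without any 1 young library or without old WT replicate 1 or 2 (adjusted p up to 0.37). Of 19 tested glycolysis genes, 16 and 15 were above 0 (medians 0.18 and 0.11), and Pdk1 alone passed.

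Aldh1l1, which oxidises 10-formyl-tetrahydrofolate, had 3.31, 2.30 and 2.82 CPM in young WT and 8.50, 5.65, 7.09 and 7.63 CPM in old WT. Old and young libraries did not overlap, and the libraries labelled young METTL3 KO were partly raised at 4.27, 3.06 and 4.67 CPM. The rise was 1.36 ± 0.23 (adjusted p = 0.0257) and 1.37 ± 0.24 without old WT replicate 3 (adjusted p = 0.0259). Exons of Aldh1l1 overlap those of Gm15756 on the other strand by 499 bp. Its call was lost without any 1 young library or old WT replicate 1 (adjusted p up to 0.232). Of 17 tested folate and one-carbon genes it alone passed, and the purine synthesis gene Atic was -0.16 with all libraries (adjusted p = 0.558) and -0.27 ± 0.08 without the replicate (adjusted p = 0.276). Faah, which breaks down the endocannabinoid anandamide, had 36.7, 34.9 and 38.7 CPM in young WT and 62.9, 49.4, 74.1 and 57.1 CPM in old WT. Its old libraries were uneven, all above the young ones. The rise was 0.73 (adjusted p = 0.0253) and 0.62 ± 0.10 without the replicate (adjusted p = 0.0185), lost without any 1 young library or old WT replicate 1 (adjusted p up to 0.232). Slc48a1, a haem transporter, had 42.9, 44.4 and 45.1 CPM in young WT and 61.1, 61.7, 61.0 and 58.1 CPM in old WT. Both groups were narrow. The change was 0.45 in both fits, with adjusted p = 0.0454 with all libraries and 0.0507 without old WT replicate 3, and old WT replicate 4 was the only library without which the call was kept (adjusted p up to 0.285).

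Padi4, an enzyme that converts arginine to citrulline in histones, fell. It had 19.1, 19.6 and 15.9 CPM in young WT and 5.57, 6.64, 8.92 and 11.1 CPM in old WT. No old library reached the lowest young one. The change was -1.18 ± 0.20 (adjusted p = 0.0224) and -1.22 ± 0.21 without old WT replicate 3 (adjusted p = 0.022). Padi4 is known from neutrophils. The neutrophil genes S100a8 and S100a9 had 0.292 to 0.902 and 0.302 to 1.203 CPM in young WT, and 0 to 0.586 and 0 to 0.297 CPM in old WT, and their part in the Padi4 value was not tested. Wscd1 had 10.8, 12.3 and 10.9 CPM in young WT and 4.49, 2.68, 1.40 and 2.12 CPM in old WT. The old libraries were all low, with old WT replicate 3 the lowest. The change was -2.07 ± 0.31 (adjusted p = 0.0148) and -1.87 ± 0.27 without it (3.65-fold lower, adjusted p = 0.0102). With all old libraries both calls were lost without any 1 young library, and that of Padi4 without old WT replicate 2 too (adjusted p up to 0.186 for Padi4 and 0.109 for Wscd1). In the fit without old WT replicate 3, the Wscd1 call was lost without young WT replicate 2 or old WT replicate 2 (adjusted p up to 0.0586). Tob2, an antiproliferative protein that recruits mRNA deadenylases, had 157, 149 and 140 CPM in young WT and 208, 201, 142 and 221 CPM in old WT. Only old WT replicate 3 lay among the young libraries. It did not pass with all libraries (0.37, adjusted p = 0.337) and passed without it (0.50 ± 0.09, adjusted p = 0.0453), not without any 1 further young library or old WT replicate 2 (adjusted p up to 0.299).

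Tex11 and Nespas fell from low counts, and Stag3 fell without old WT replicate 3. Tex11, an X-linked gene of meiosis, had 2.92, 1.002 and 1.41 CPM in young WT and no count in any old WT library. It was also near 0 in the libraries labelled young METTL3 KO (0.0992, 0 and 0 CPM), so its low level was not confined to old libraries. With a floor of 3 counts per library, it was at least 5.92-fold lower in old WT (adjusted p = 0.0213, and 0.019 without old WT replicate 3). Stag3, a cohesin subunit of meiosis, had 6.72, 11.0 and 5.04 CPM in young WT and 2.44, 2.18, 3.98 and 2.99 CPM in old WT. It did not pass with all libraries (-1.39, adjusted p = 0.0969) and was just past the threshold without the replicate (-1.57 ± 0.30, adjusted p = 0.0499). Nespas, an antisense transcript of the imprinted Gnas locus, had 1.36, 1.002 and 1.81 CPM in young WT and 3 counts in all 4 old libraries together. Its young to old ratio was 18.5, with a 95% exact interval of 5.93 to 93.5 that covers counting error only (adjusted p = 0.0165 and 0.0176). Gnas itself, on the other strand, did not pass (0.26, adjusted p = 0.344, and 0.24, adjusted p = 0.402, without the replicate). These 3 calls were each lost without at least 2 of the 3 young libraries, with adjusted p up to 0.111 for Tex11, 0.224 for Stag3 and 0.12 for Nespas.

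Genes known by clone names made up 6 of the 44 called in either fit. A530040E14Rik (0.681, 0.701 and 0.604 CPM in young WT against 7.72, 6.34, 13.6 and 7.24 CPM in old WT) and C130026I21Rik (0.779, 0.501 and 0.403 against 5.37, 4.06, 8.38 and 4.25 CPM) overlap on opposite strands of chromosome 1 by 343 bp. Both rose in either fit, by 3.69 and 3.26 on the log2 scale with all libraries and by 3.40 and 2.99 without old WT replicate 3. A630023P12Rik had 6.13, 6.21 and 3.93 CPM in young WT and 0.684, 0.793, 3.12 and 0.386 CPM in old WT. The high old library was replicate 3, and the gene passed only without it (-3.10 ± 0.31, adjusted p = 0.000473, against -2.14, adjusted p = 0.142). 9630013D21Rik rose (1.72, adjusted p = 0.0165, and 1.77 without the replicate) and 4921525O09Rik fell (-0.95, adjusted p = 0.0223, and -0.82), both calls being lost without any 1 young library (adjusted p up to 0.142). BE692007, higher only without the replicate (1.39, adjusted p = 0.045, and up to 0.223 with 1 further library left out), overlaps the myeloid-expressed Ms4a6c by 1088 bp. The C130026I21Rik call with all libraries was lost without young WT replicate 2 or 3 (adjusted p up to 0.0768).

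**Figure D4:**
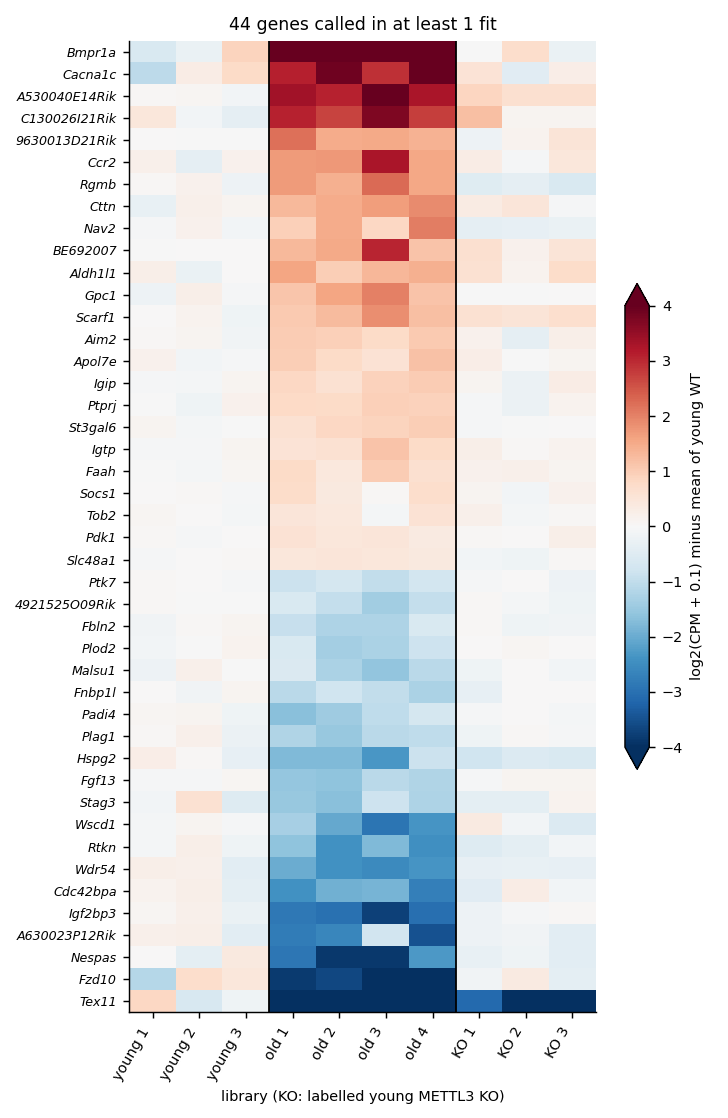
Heat map of the 44 genes called in either fit (rows) in 10 libraries (columns), as log2(CPM + 0.1) minus the mean of young WT, capped at 4 in either direction. Those labelled young METTL3 KO take the colour of young WT in nearly every row, and old WT replicate 3 departs from the other old libraries in rows such as Ccr2, Socs1, Tob2 and A630023P12Rik.

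The libraries labelled young METTL3 KO entered the filter, the scaling and the spread but not the old to young contrast, and in these genes they lay with young WT. On the log2(CPM + 0.1) scale, all 3 were nearer to the young than to the old mean in 41 of 44 called genes, the others being Aldh1l1 and Tob2 (2 of 3 libraries each) and Tex11 (0 of 3). They were separate from every old library, on the young side, in 41 genes, all but Socs1, Tob2 and Tex11. Neither count was made over all genes tested, so no background share stands beside them. The 44 genes were chosen for a difference between old and young WT, with these libraries in the estimate of spread. Whether the libraries labelled young METTL3 KO resemble young WT was not tested.

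The called genes were mostly of low abundance. Their median level was 12.6 CPM, against 23.7 CPM over all genes tested, and 75% were under 20 CPM against 46.6%. Exons of 44.4% overlapped a gene on the other strand, against 36.8% of all genes. Protein-coding genes made up 88.9% against 78.6%. Without old WT replicate 3, 74.4% of the called genes were under 20 CPM against 46.3%. In that fit 39.5% overlapped a gene on the other strand against 36.9%, 86.0% were protein-coding against 78.7%, and 16.3% lay on chromosome 6 against 5.25%. The values that follow are from the fit of all libraries. On chromosome 6 lay 7 of the 36 (19.4%, against 5.28% of all genes): Igf2bp3 and its overlapping neighbour Malsu1, Rtkn and its overlapping neighbour Wdr54, and Fbln2, Aldh1l1 and Cacna1c. Members of an overlapping pair share reads and are not independent.

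The DP programme itself changed little in value. None of 16 DP stage genes passed in edgeR in either fit (2 had an unadjusted p under 0.05 in each, beside 12.1% and 10.8% of all genes, and DESeq2 called 0), and their median was 0.02, or 0.06 without old WT replicate 3. The receptor-rearranging Rag1 had 7036, 5462 and 5526 CPM in young WT and 3482, 6395, 3728 and 6590 CPM in old WT. Old WT replicates 1 and 3 were low and the other 2 lay within the young range, so no common change was seen (-0.25 ± 0.21, adjusted p = 0.663, and -0.13 ± 0.20 without replicate 3). Its partner Rag2 (0.11), the nucleotide-adding Dntt (-0.11), the pre-receptor chain Ptcra (0.09), Cd4 (0.07), Cd8a (0.00) and Cd8b1 (0.03) did not pass without the replicate. Cd3e, a signalling chain of the receptor, was higher in every old library in value (0.27, adjusted p = 0.32, and 0.25 ± 0.09, adjusted p = 0.365, without the replicate). Genes raised on positive selection had a median of 0.35 with all libraries and 0.22 without the replicate, 21 and 19 of 22 were above 0, and none passed in edgeR (12 and 8 at an unadjusted p under 0.05, beside 12.1% and 10.8% of all genes, and 0 in DESeq2). Summed over that list, levels were 2304 to 2383 CPM in young WT and 2570, 2492, 3084 and 2899 CPM in old WT.

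Several list medians depended on old WT replicate 3, and 0 members of these lists passed in edgeR in either fit. The median of mature single-positive genes went from 1.02 to 0.13 without it, that of NK, NKT and gamma-delta genes from 0.85 to 0.06, that of dendritic and MHC class II genes from 2.06 to 0.33 and that of myeloid genes from 1.66 to 0.38. Erythroid genes went from 0.61 to -0.76. Mitochondrially encoded genes turned from 11 of 11 above 0 (median 0.65) to 0 of 11 (-0.26). At an unadjusted p under 0.05 these lists held, in the same order, 4, 1, 2, 4, 0 and 0 genes with all libraries and 3, 0, 4, 4, 1 and 3 without the replicate. Over all genes the shares were 12.1% and 10.8%. With all libraries, 16, 7, 11 and 10 genes of the first 4 lists were tested. DESeq2 called 0 of them with all libraries, and 1 mature single-positive gene higher and 1 dendritic gene lower without it. Beside this stand 0.502% higher and 0.304% lower over all genes without the replicate. The dendritic gene Fscn1 had 2.30 to 3.32 CPM in young WT, 8.81 CPM in old WT replicate 3 and 0.483 to 0.879 CPM in the other old libraries (-1.92 ± 0.41 without it, adjusted p = 0.0929). In this it differed from most of its list, as 7 of 11 tested members stayed above 0 without the replicate. H2-Aa (0.82), H2-DMb1 (0.97) and Cd74 (0.90) were among those above 0, and none of them passed.

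B cell genes kept more of their difference. Their median was 2.68 over 13 of 16 listed genes and 1.64 over 11 without old WT replicate 3, and every tested member was above 0 in both fits. A gene near 0 in young WT, such as Cd22, could enter the tests through its old libraries alone. Such medians and counts above 0 are therefore partly set by the filter. None passed in edgeR (11 and 9 at an unadjusted p under 0.05, beside 12.1% and 10.8% of all genes). DESeq2 called 5 and 3, all higher, beside 0.766% and 0.502% of all genes called higher. Cd22, a B cell lectin, had 0.301 to 0.504 CPM in young WT and 1.86, 8.03, 32.5 and 1.16 CPM in old WT. Cd79a, of the B cell receptor, had 1.002 to 1.65 CPM in young WT and 3.61, 9.91, 27.1 and 2.41 CPM in old WT. Old WT replicates 3 and 2 were the highest in both genes and replicate 4 the lowest, still above the young libraries. The adjusted p without replicate 3 was 0.145 for Cd22 and 0.158 for Cd79a. The part of B cell transcripts in other differences was not tested.

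Lists of growth and protein synthesis had nearly the same median with and without old WT replicate 3. Replication-dependent histone genes had a median of -0.90 and of -0.88 without it, with 1 of 31 above 0 and none called in edgeR (16 at an unadjusted p under 0.05 in each fit, beside 12.1% and 10.8% of all genes, and 2 and 3 lower in DESeq2, beside 0.309% and 0.304%). They summed to 122, 159 and 175 CPM in young WT and 137, 87.3, 90.1 and 44.8 CPM in old WT. DNA replication genes (-0.17 and -0.16), mitosis genes (-0.16 and -0.20) and cytosolic ribosomal protein genes (-0.18 and -0.22) lay below 0, and none passed in edgeR. At an unadjusted p under 0.05 they held 4, 0 and 11 genes with all libraries and 2, 0 and 8 without the replicate, and DESeq2 called 1, a replication gene that was higher without it. For mitosis genes old WT replicate 4, at 3618 CPM against 5742 to 6839 CPM in the other old libraries, was the low one, and without it the median was 0.02 for mitosis genes and -0.06 for replication genes. Immediate-early genes, which respond to cell handling as well as to signals, were 0.26 and 0.24, with Zfp36, an mRNA-decay factor, at 0.59 ± 0.11 without the replicate (adjusted p = 0.0507). In the p53 and senescence list (0.09 and 0.13) no gene passed in edgeR or DESeq2 (6 and 4 at an unadjusted p under 0.05), the cell-cycle inhibitor Cdkn1a among them (0.23 and 0.01).

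Genes of ferroptosis, the iron-dependent death by lipid peroxidation named in the series title, held no call in edgeR in either fit. DESeq2 called 2 restraining genes higher with all libraries and 1 without old WT replicate 3, beside 0.766% and 0.502% of all genes. In each fit, 4 and 1 genes of the restraining and promoting lists had an unadjusted p under 0.05, beside 12.1% and 10.8% of all genes. Those that restrain it had a median of -0.03 over 21 genes and of 0.00 without old WT replicate 3, and those that promote it of -0.02 over 18 and of -0.05. The oxidative stress regulator Nfe2l2 had 36.6 to 46.7 CPM in young WT and 54.0, 57.7, 62.0 and 61.5 CPM in old WT (0.49, adjusted p = 0.0942, and 0.47 ± 0.11 without the replicate, adjusted p = 0.125). The transferrin receptor Tfrc had 161 to 169 CPM in young WT and 127, 145, 119 and 136 CPM in old WT (-0.32, adjusted p = 0.23, and -0.27 ± 0.08 without the replicate, adjusted p = 0.271). In both genes the groups were apart, and neither passed. Gpx4 (-0.09 and -0.12), Slc7a11 (-0.15 and 0.04) and Acsl4 (0.13 and 0.17) overlapped between groups. The m6A writers had a median of -0.01 and 0.01 over 9 genes, with 0 called in edgeR or DESeq2 and 0 at an unadjusted p under 0.05, and Mettl3 was -0.04 ± 0.08 without the replicate. Of 13 readers and erasers Igf2bp3 alone passed.

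Other lists held no call in edgeR in either fit. Sterol and fatty acid synthesis genes had 22 of 26 members above 0 with all libraries and 19 without old WT replicate 3 (medians 0.19 and 0.16). Nuclear genes of oxidative phosphorylation had 9 and 6 of 48 above 0 (-0.15 and -0.16), and glucocorticoid-induced genes 4 of 14 in each fit (-0.24 and -0.14). These 3 lists held 8, 4 and 4 genes at an unadjusted p under 0.05 with all libraries and 3, 5 and 4 without the replicate, beside 12.1% and 10.8% of all genes. DESeq2 called 1 sterol gene higher and 1 glucocorticoid-induced gene lower with all libraries, and none without it. With all libraries it called 0.766% of all genes higher and 0.309% lower. Medians were 0.07 and 0.03 for T cell receptor signalling, 0.07 and 0.14 for thymocyte transcription factors, 0.07 and 0.02 for the unfolded protein response, 0.09 and 0.15 for the BCL2 family, 0.05 and -0.14 for heat shock, -0.04 and -0.10 for DNA end joining and repair, 0.30 and 0.11 for progenitor and double-negative genes, and 0.26 and 0.14 for regulatory T cell genes. In that order they held 2, 2, 1, 3, 2, 1, 1 and 1 genes at an unadjusted p under 0.05 with all libraries and 2, 1, 1, 2, 5, 1, 2 and 1 without the replicate, again beside 12.1% and 10.8% of all genes. DESeq2 called 1 BCL2 family gene lower and 1 heat shock gene higher with all libraries, and none without it. Thymic epithelial genes, 3 of 11 tested, summed to 24.2 to 29.5 CPM in young WT and 19.9 to 37.1 CPM in old WT. Platelet and adipocyte genes summed to at most 5.16 CPM and 1.72 CPM in any of the 7 libraries.

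**Figure D5:**
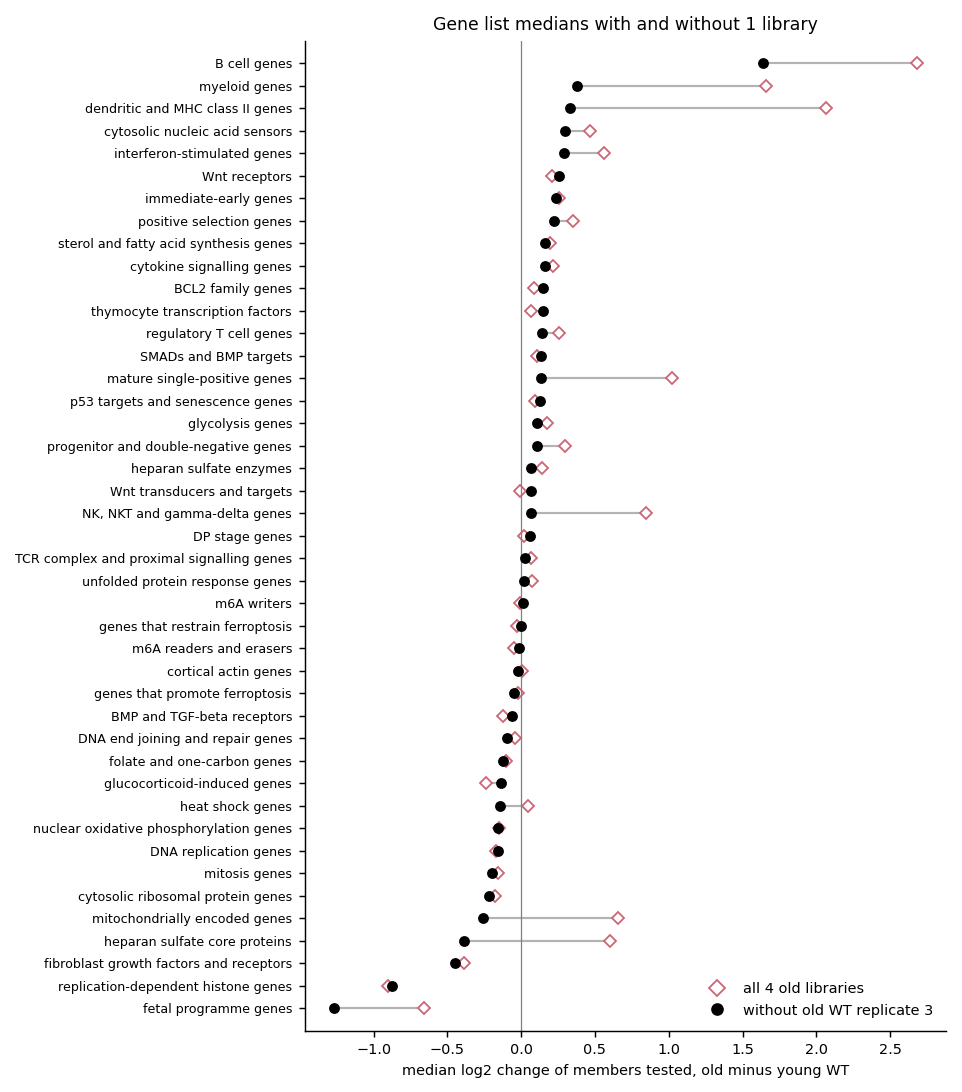
Median log2 change from young to old WT of lists with at least 5 tested members (horizontal axis), with all 4 old libraries (diamonds) and without old WT replicate 3 (black points). The pair of marks lies far apart for lists of other cell types, such as dendritic and MHC class II genes (2.06 and 0.33), and close together for histone genes (-0.90 and -0.88) and DP stage genes (0.02 and 0.06).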

How the data were processed

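RNA was taken with Trizol and libraries were made by BGI, per the labels. The submitters' processing notes name HISAT2 2.0.5 and the build mm10. Which program counted the reads, with what annotation and strand option, is not given in the sources used here. What the authors deposited are raw read counts, 1 count per gene and library. Of 55335 identifiers, 55154 were found in the mouse gene table. The 5 summary lines of each file were left out of library sizes and tests. Symbols and coordinates came from that table and the GENCODE annotation of mm10, and microRNA and promoter sequences from RefSeq.

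After filterByExpr and TMM scaling, genes were tested in R 4.3.3 with edgeR 4.0.16 (and limma 3.58.1), by a robust quasi-likelihood fit of old WT (4), young WT (3) and the libraries labelled young METTL3 KO (3), two-sided, with Benjamini-Hochberg adjustment over all genes and a threshold of 0.05. The same fit was made without old WT replicate 3. Per-library values are CPM over TMM-scaled totals. Lists were described by counts and medians, with no test of a list. The members compared and the lists were chosen with earlier results of these data known. Named genes are those called in either fit with a mean of at least 1 CPM in a group and an ordinary symbol, up to 4 members of a list by p, 20 fixed genes, partners on the other strand and family members. The 5 Rik genes and any others outside this rule were named after their values were seen. A fixed gene and a list are not reported here.

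Same-numbered young and old libraries deviated with correlations of 0.04, -0.18 and 0.05, so they were not treated as pairs, and no 2 libraries were alike within sampling noise. Alternatives were DESeq2 1.42.0 and its size factors, library size alone, limma-voom, no filter, a filter of 1 CPM in 3 libraries, sex as a factor, a replicate block, WT groups alone and each library left out. The fit was tested on simulated data. Python 3.11.15, pandas 2.3.3, scipy 1.17.1 and matplotlib 3.10.9 made tables and figures.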

Additional observations from a re-analysis of the deposited data

Results flagged for a closer look

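Of 118 values checked over the 4 old WT libraries, 18 had 1 library apart from the other 3 by Dixon's criterion, which chance alone flags in about 1 in 20. Old WT replicate 3 was the library apart in 11 of these, 8 times as the highest and 3 times as the lowest.

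In old WT replicate 3, Ccr2 was 14.7 CPM against 4.35 to 4.96 CPM in the other old libraries, BE692007 was 11.4 against 2.99 to 3.87 CPM, and A630023P12Rik was 3.12 against 0.386 to 0.793 CPM. Its summed levels were 298 CPM for myeloid genes against 50.03 to 63.6 CPM, 1054 CPM for dendritic and MHC class II genes against 89.2 to 179 CPM, and 47.5 CPM for erythroid genes against 1.56 to 6.84 CPM. Mitochondrially encoded genes summed to 93558 CPM there against 18043 to 20609 CPM, and 9.18% of its entries were not uniquely aligned against 4.46% to 5.10%. It was low for Ptcra, at 23.4 against 29.8 to 30.9 CPM. Thymocyte transcription factors summed to 12837 CPM in it, against 15567 to 16101 CPM, and 47.5% of its entries lay outside genes, against 50.3% to 50.8%.

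The other 7 concern old WT replicates 1 and 4. In replicate 1, 9630013D21Rik was 10.9 CPM against 6.18 to 6.88 CPM, Lin28b was 0.0977 CPM (1 count) against 0, and progenitor and double-negative genes summed to 262.5 CPM against 381 to 396 CPM. In replicate 4, Cd4 was 1532 CPM against 1221 to 1267 CPM. Igf2bp1 was 0.0966 CPM there against 0.195 to 0.215 CPM, which rests on 1 or 2 counts per library. Stromal and endothelial genes summed to 131 CPM in it against 126 CPM in each of the others, and m6A readers and erasers to 3623 CPM against 3895 to 3902 CPM.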

How the results depend on the processing

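The count of called genes depended on the tool and the filter. With all libraries (36) it was 85 with no filter on low counts, 153 in DESeq2, 61 with the replicate number as a block, 11 with the WT groups alone, and between 8 and 59 over the fits that each drop 1 library. With old WT replicate 3 left out (43) it was 324 with no filter, 114 in DESeq2, 57 with the replicate block, 21 with the WT groups alone, and 16 to 433 with 1 further library left out. The block in effect leaves out old WT replicate 4, which has its own number, and the pairing is by number only. The WT fit has fewer samples, and the other causes were not tested. Other scalings, a filter of 1 CPM in 3 libraries, limma-voom and sex as a factor gave 32 to 36 with all libraries and 33 to 45 without the replicate.

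Of the 36 genes called with all libraries, 29 lost their call in at least 1 alternative and none changed direction. The WT groups alone ended 25 calls, sex as a factor 5 and the replicate block 3. Of 183 genes not called, 29 passed in at least 1 alternative. For 10 of 48 lists the median moved by more than the spread between libraries, 6 of these without old WT replicate 3. With at most 10307780 counts in a library, a gene under 1 CPM rests on about 10 counts or fewer, so differences in such genes were mostly not detectable.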
